A study of Mus musculus with 2 samples.

Results

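The 32 genes described here belong to the response to low oxygen and to glycolysis, and were chosen by name. They are 16 targets of the hypoxia-inducible factors (HIFs), 14 glycolytic enzymes, the cytokine gene Mif, and Hif1a, which encodes a HIF alpha subunit. All 32 were found among the 27998 genes listed for both libraries. The 2 libraries hold single-cell RNA of CD45+ cells, leukocytes by their surface protein, that were sorted from tumours in C57BL/6 mice. The tumours grew from 50000 injected cells of MC38-GFP+, a colon adenocarcinoma line that makes a green fluorescent protein. Doses of 100 ug of anti-PD-1 antibody, which the labels call sub-optimal, were given to each mouse 4 times, on day 12, on day 15, on day 18 and on day 22, so neither group was untreated. The labels set 1 library as non-responder and 1 as responder. How many mice a library came from, and their age and sex, are not given.

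In cells short of oxygen, HIF alpha proteins escape the prolyl hydroxylases and VHL that otherwise lead to their destruction, pair with ARNT and bind DNA at sites with a core of ACGTG or GCGTG. Their targets carry glucose in and lactate out, raise glycolysis, restrain mitochondria and call for new vessels. Tumour macrophages far from vessels are known for such a state, but activated macrophages also turn to glycolysis with oxygen present.

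The non-responder library held 2580 barcodes and the responder library 4425. After removal of 64 barcodes with few detected genes or many mitochondrial UMIs (unique molecular identifiers, 1 per captured RNA molecule), 2565 and 4376 cells remained, with medians of 11752 and 10043 UMIs. There were 14 barcodes that occurred in both libraries, and leaving their cells out left the log2 ratio of the summed genes at -0.34. Clusters were made without the 32 genes and without the other pathway genes. The monocyte/macrophage-like class took up 2360 and 4158 cells, 92.01% and 95.02%. Its macrophage markers, complement C1q and Apoe among them, summed to 36447 and 41959 CPM, counts scaled to a total of 1000000. With 1 library per group there is no replicate check and no test: every difference is between these 2 libraries, and intervals cover counting error only, at 95%.

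In the monocyte/macrophage-like class the hypoxia targets were lower in the responder library than in the non-responder library, and the glycolytic enzymes less so. UMIs were summed over the cells of the class and divided by the class total. The 16 hypoxia targets together came to 1530.3 CPM (interval 1516 to 1545) in the non-responder library and 930.4 (921.3 to 939.5) in the responder library, a log2 ratio, responder over non-responder, of -0.72 (-0.74 to -0.70). The 14 enzymes came to 14303 and 11459.5 CPM, a log2 ratio of -0.32. All 32 genes together came to 17341 and 13717 CPM, a log2 ratio of -0.34. The libraries filled the clusters of the class unevenly. Most non-responder cells were in clusters 0, 1, 3 and 6, and most responder cells in clusters 5, 8, 9, 10 and 14. Library and cell type cannot be told apart in clusters that are nearly all of 1 library. A median of -0.09 over the 10863 genes with at least 50 counts sets the level against which these ratios stand, and scaling by trimmed means (TMM) moves all ratios up by 0.12.

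Past a 1.5-fold difference, 12 of the 32 genes were lower in the responder library, beside 11.4% of all genes measured, and 2 were higher, beside 8.06%. Of the 16 hypoxia targets, 10 were lower and 1 higher, with a median log2 ratio of -0.89. Of the 14 enzymes, 2 were lower and 1 higher, with a median of -0.28. The enzyme counts were thus near the shares of all genes.

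**Figure D1:**
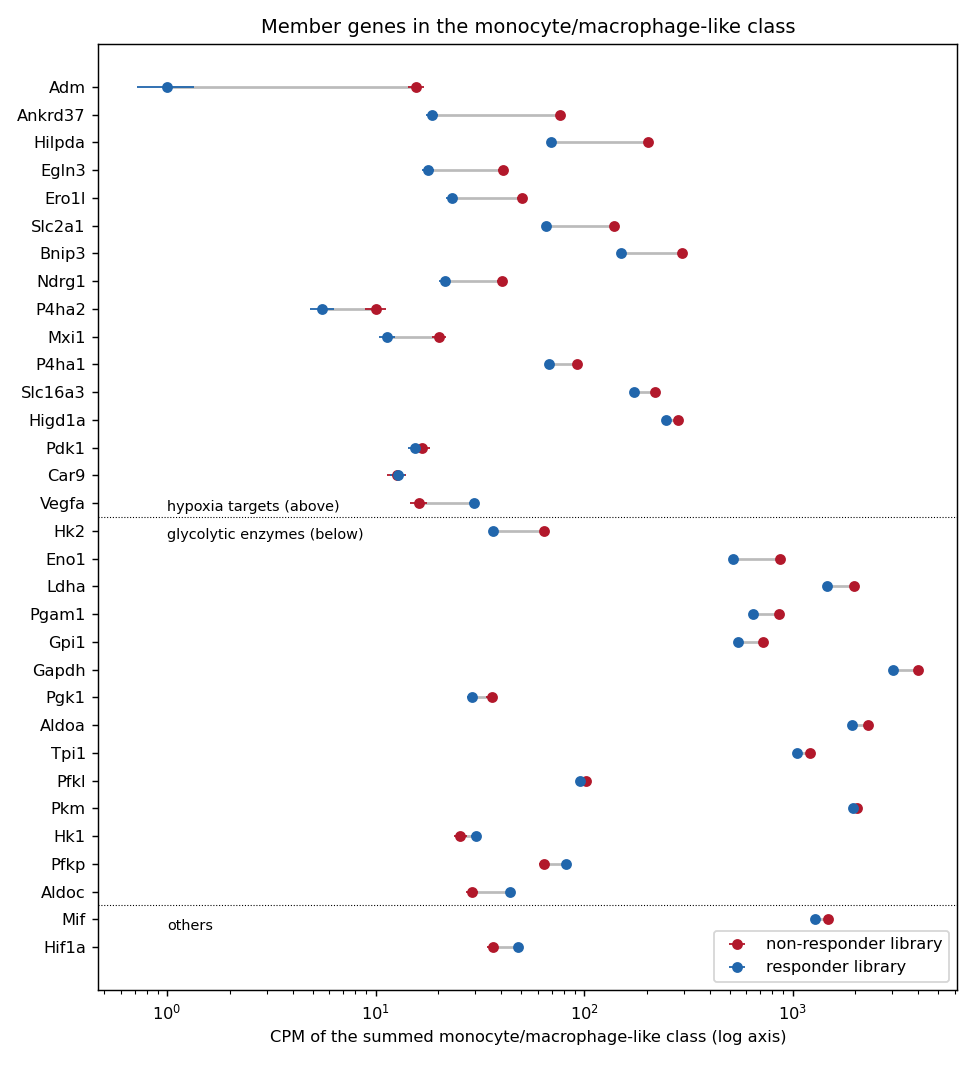
CPM of each gene in the summed monocyte/macrophage-like class (x axis, log scale) in the non-responder library (red) and the responder library (blue), with 95% Poisson intervals that are mostly narrower than the points. Adm, at 15.6 and 0.996 CPM, has the widest gap, while Vegfa, at 16.1 and 29.7 CPM, lies the other way.

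Adm (chr7:110627661-110629820, plus strand of GRCm38, by GENCODE M21) encodes adrenomedullin, a peptide that widens vessels. It was at 15.6 CPM in the non-responder library and 0.996 in the responder library, a log2 ratio of -3.97 (-4.46 to -3.52). These are 461 and 43 counts, and 371 of the 461 came from cluster 6 alone. Ankrd37, an ankyrin repeat protein gene, was at 76.6 and 18.7 CPM, a log2 ratio of -2.04. Hilpda, whose product sits on lipid droplets and holds back lipolysis, was at 203.4 and 69.6 CPM, a log2 ratio of -1.55. These 3 genes were more than 2-fold lower in the responder library.

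Egln3 encodes one of the prolyl hydroxylases that mark HIF alpha and is itself a HIF target. Its level was 40.97 CPM in the non-responder library and 17.9 in the responder library, a log2 ratio of -1.20. Ero1l, an oxidase that serves protein folding in the endoplasmic reticulum, was at 50.1 and 23.2 CPM, a log2 ratio of -1.11. Slc2a1 encodes the glucose transporter GLUT1 and was at 139.9 and 65.5 CPM, a log2 ratio of -1.10. With Adm, Ankrd37 and Hilpda these made up the 6 genes lower by at least 2-fold, beside 4.42% of all genes, and none was higher by as much, beside 3.4%. The ratio of Ero1l turned to 0.26 when the 4 clusters with at least 20 cells in each library were given equal weight. Bnip3, a receptor for the removal of mitochondria, was at 294.9 and 150.9 CPM, a log2 ratio of -0.97. Ndrg1, a stress-response gene, was at 40.5 and 21.4 CPM. P4ha2, a subunit of collagen prolyl hydroxylase, was at 10.0 and 5.53 CPM. Mxi1, an antagonist of Myc, was at 20.1 and 11.4 CPM. Ratios of these last 3 genes lay between -0.92 and -0.82, and with that equal weight those of P4ha2 and Mxi1 turned to 1.11 and 0.17.

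The other hypoxia targets did not pass 1.5-fold downward. P4ha1, the sister subunit of P4ha2, was at 92.1 and 67.8 CPM, a log2 ratio of -0.44. The lactate exporter Slc16a3 was at 218.1 and 173.4 CPM, a log2 ratio of -0.33. Higd1a, a protein of the mitochondrial inner membrane, was at 282.5 and 246.2 CPM, a log2 ratio of -0.20. For Pdk1, a kinase that shuts off pyruvate dehydrogenase, the interval of the log2 ratio ran from -0.27 to 0.07. For Car9, a carbonic anhydrase, it ran from -0.18 to 0.21, at 12.6 and 12.8 CPM. Neither interval excludes 0. Vegfa (chr17:46016993-46032369, minus strand), the vascular growth factor, was the exception among the targets, at 16.1 CPM in the non-responder library and 29.7 in the responder library, a log2 ratio of 0.88 (0.73 to 1.04).

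Among the enzymes, Hk2 and Eno1 were lower past 1.5-fold and Aldoc was higher. Hk2, a hexokinase that takes the first step of glycolysis, was at 64.5 and 36.6 CPM, a log2 ratio of -0.82. The other hexokinase, Hk1, was at 25.5 and 30.4 CPM, a log2 ratio of 0.25. The hexokinases therefore differed in opposite directions. Gpi1, the isomerase of the next step, was at 721.9 and 549.0 CPM. The phosphofructokinases also parted: Pfkl was at 102.6 and 95.9 CPM and Pfkp at 64.0 and 81.6 CPM, log2 ratios of -0.10 and 0.35, and with TMM scaling that of Pfkl turned to 0.02. The aldolases did so too. Aldoa was at 2305 and 1927 CPM, a log2 ratio of -0.26, and Aldoc at 29.1 and 44.3 CPM, a log2 ratio of 0.61 that fell under 1.5-fold in 7 of 18 other settings.

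In the lower part of the pathway, log2 ratios were -0.74 for Eno1 (869.4 and 518.9 CPM), -0.44 for Ldha (1982 and 1461 CPM) and -0.41 for Pgam1 (857.7 and 643.8 CPM). Eno1 is an enolase, Ldha makes lactate from pyruvate and Pgam1 is a phosphoglycerate mutase. Gapdh, the dehydrogenase of the pathway, was at 3992 and 3042 CPM, a log2 ratio of -0.39. The triosephosphate isomerase Tpi1 was at 1217 and 1052 CPM, a log2 ratio of -0.21. Pkm, pyruvate kinase, was at 2036 and 1949 CPM, and its log2 ratio of -0.06 turned to 0.06 with TMM scaling. Pgk1, phosphoglycerate kinase, was at 36.0 and 29.2 CPM. Its value is uncertain, because the near-copy Pgk1-rs7 held 214 and 192 counts of its own and how reads shared by the copies were treated is not given. The same holds on a smaller scale for Eno1, whose near-copy Eno1b held 928 and 789 counts, and for Aldoa, whose near-copy Aldoart1 held 260 and 202.

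Hif1a (chr12:73901375-73947530, plus strand) did not differ in the direction of most of its targets. It was at 36.4 CPM in the non-responder library and 48.4 in the responder library, a log2 ratio of 0.41 (0.31 to 0.52). Hif1a RNA is not a measure of the protein, which oxygen controls. Mif, a macrophage cytokine and a known HIF target, was at 1471 and 1279 CPM, a log2 ratio of -0.20. Of 6 measured HIF regulators none passed 1.5-fold, among them Arnt, the HIF partner, at 12.99 and 13.36 CPM and Vhl at 30.9 and 22.8 CPM.

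Other genes of the pathways were counted the same way, and each count stands beside the 11.4% of all genes that were lower and the 8.06% that were higher. Of 17 measured further hypoxia targets, 6 were lower past 1.5-fold, with Slc2a3, Ak4, Gys1, Bhlhe40 and Pgf among them. The only higher one was Angptl4, and the median log2 ratio was -0.41. Gys1 and Ak4 only just passed, at log2 ratios of -0.585 and -0.596, and Slc2a3 rested on 59 and 45 counts. Bhlhe40, a transcription repressor, was at 65.9 and 16.8 CPM, and Pgf, a relative of Vegfa, at 3.70 and 0.347 CPM. Of 16 further genes of glycolysis and pyruvate handling, none was lower and Hk3, another hexokinase gene, was higher, at 50.7 and 109.2 CPM. None of 7 pentose phosphate genes passed 1.5-fold. Of 12 citric acid cycle genes, Idh3a was lower, at 57.8 and 33.8 CPM, and none was higher.

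The promoters of 5 of the genes are shown because 4 of the genes were lower in the responder library and Hif1a was not. Each stretch shown holds the HIF core. Sequences are RefSeq's on GRCm38.p6, 250 bases up to the base before the start, 5′ to 3′ on the gene's strand, with ACGTG or GCGTG, read on either strand, in capitals. On the other strand the letters read CACGT or CACGC, and matches that overlap run together. Bnip3 lies at chr7:138909507-138909756 on the minus strand, Ankrd37 at chr8:45999851-46000100 on the minus strand, and Hilpda, by the second of its 2 starts, at chr6:29272376-29272625 on the plus strand. Ldha, by the first of its 2 starts, lies at chr7:46845554-46845803 on the plus strand and Hif1a at chr12:73907617-73907866 on the plus strand.
Bnip3: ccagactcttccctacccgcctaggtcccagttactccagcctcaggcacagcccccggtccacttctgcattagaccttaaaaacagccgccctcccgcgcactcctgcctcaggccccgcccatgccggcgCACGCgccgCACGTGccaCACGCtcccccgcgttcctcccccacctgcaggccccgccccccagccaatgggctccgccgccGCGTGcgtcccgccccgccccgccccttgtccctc
Ankrd37: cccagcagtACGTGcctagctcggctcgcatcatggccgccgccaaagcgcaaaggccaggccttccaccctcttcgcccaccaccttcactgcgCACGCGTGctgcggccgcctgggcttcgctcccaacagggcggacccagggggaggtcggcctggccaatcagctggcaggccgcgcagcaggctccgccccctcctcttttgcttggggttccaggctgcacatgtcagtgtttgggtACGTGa
Hilpda: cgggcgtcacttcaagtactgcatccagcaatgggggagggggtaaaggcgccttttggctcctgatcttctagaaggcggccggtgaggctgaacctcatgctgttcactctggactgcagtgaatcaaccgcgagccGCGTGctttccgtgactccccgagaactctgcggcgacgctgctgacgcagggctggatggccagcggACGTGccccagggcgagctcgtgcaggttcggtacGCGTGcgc
Ldha: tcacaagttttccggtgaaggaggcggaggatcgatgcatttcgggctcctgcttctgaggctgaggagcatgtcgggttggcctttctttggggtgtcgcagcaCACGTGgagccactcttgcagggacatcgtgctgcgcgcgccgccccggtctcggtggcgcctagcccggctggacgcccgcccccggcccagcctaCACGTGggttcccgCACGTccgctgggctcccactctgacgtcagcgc
Hif1a: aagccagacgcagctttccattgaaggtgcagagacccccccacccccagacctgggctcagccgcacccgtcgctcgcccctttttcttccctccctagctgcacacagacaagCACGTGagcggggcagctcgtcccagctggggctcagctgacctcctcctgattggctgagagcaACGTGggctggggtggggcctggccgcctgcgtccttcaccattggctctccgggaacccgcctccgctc
These stretches hold 5 matches for Bnip3, 4 for Ankrd37, 3 for Hilpda, 5 for Ldha and 3 for Hif1a. The letters CACGTG, found in Bnip3, Ldha and Hif1a, hold the core on each strand and count as 2 matches, so matches are not separate places. At the starts not shown, the 250 bases held 0 matches for Hilpda and 1 for Ldha.

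Over windows of 250 bases before to 50 after a start, 29 of the 31 genes matched in the table held at least 1 match in 1 of their windows, against 46.7% of all genes. Gpi1 and Tpi1 held none. At least 3 matches were found in 14 of the 31, against 10.2% of all genes. Both cores contain CG, and the windows of these genes were richer in CG, with a median of 21 against 7 in all windows. The part of CG content in the difference was not tested. A match is a description of the letters and not a bound site.

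By cluster, hypoxia targets and enzymes went up and down together. Among clusters of the class, the hypoxia targets of the non-responder library were highest in clusters 6 and 7. Cluster 6 differed between the libraries in its number of cells and hardly in these levels, while in cluster 7 the levels differed. Cluster 6 had 384 cells in the non-responder library and 28 in the responder library, and was led by Mmp12, Pmp22, Hmox1 and Gpnmb. It held 16.3% of the non-responder cells of the class and 33.2% of their hypoxia-target UMIs. Within it the libraries were close, at 3728 and 3825 CPM of hypoxia targets (log2 ratio 0.04, -0.06 to 0.14) and 24867 and 24558 CPM of enzymes. Adm stood at 92.3 and 56.7 CPM in cluster 6 and at 9.01 CPM or less in every other cluster with at least 20 cells in a library. Past 1.5-fold, 6 of the 32 genes were lower in its responder cells, beside 24.4% of all genes measured there, and 6 were higher, beside 12.5%. Bnip3, at 792.2 and 754.6 CPM, and Slc2a1, at 382.3 and 475.5 CPM, were also high there in both libraries.

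Cluster 7 had 162 and 50 cells and carried monocyte markers (Ly6c2, Plac8, Chil3). Here the libraries parted, with hypoxia targets at 2916 CPM in the non-responder cells and 698.4 in the responder cells (log2 ratio -2.06) and enzymes at 17959 and 6092. Of 27 genes measured there, 25 were lower in the responder cells past 1.5-fold, beside 16.8% of all genes, and none was higher, beside 16.6%. Hilpda was at 696.5 and 71.3 CPM and Egln3 at 171.1 and 11.9. These were not the same kind of cell by other genes: S100a8, a neutrophil and monocyte gene, was at 883.3 CPM in the non-responder cells and 0 in the responder cells, and S100a9 at 416.5 and 0. The summed neutrophil markers were 1564 and 50.5 CPM, with 2 of 10 detected in the cluster, and the macrophage markers were 11003 and 22496 CPM. Their part in the result was not tested.

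**Figure D2:**
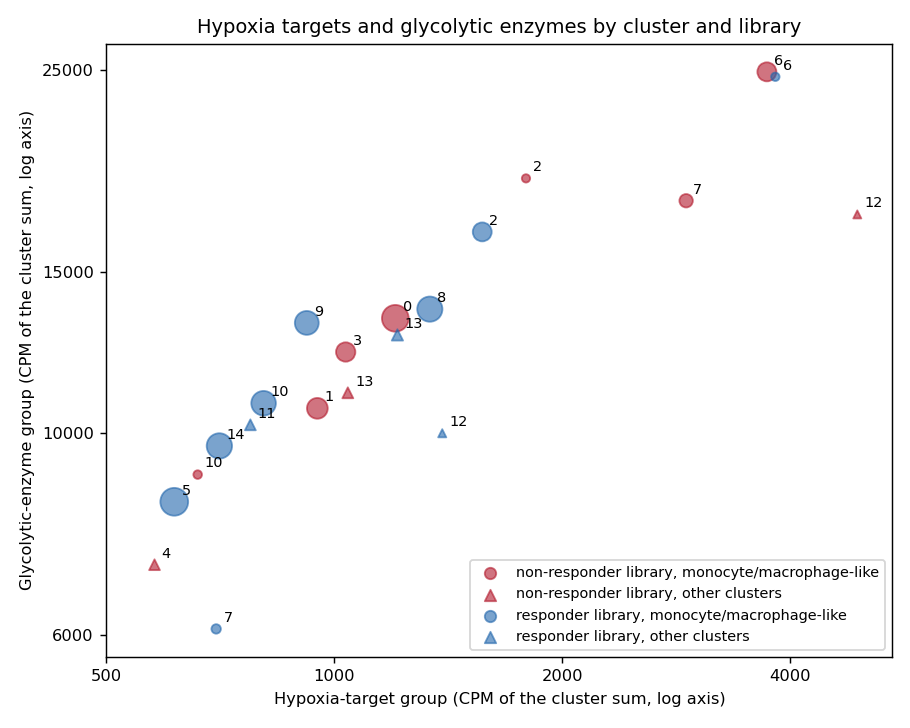
Hypoxia targets (x axis) against glycolytic enzymes (y axis) in CPM of the cluster sum, both on log scales, for each cluster with at least 20 cells in a library. Red points are the non-responder library, blue points the responder library, circles the monocyte/macrophage-like clusters and triangles the others, with larger points for more cells. Cluster 6 lies at the top right in both libraries, and cluster 7 lies far apart between them.

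The other clusters with at least 20 cells in each library differed less, though nearly all their cells were of the responder library. In cluster 2, led by Mmp13 and Arg1, with 25 and 380 cells, hypoxia targets were at 1792 and 1569 CPM. Of 31 genes measured in cluster 2, 2 were lower past 1.5-fold, beside 11.8% of all genes, and 4 were higher, beside 16.7%. In cluster 10, led by genes of dividing cells, with 31 and 683 cells, they were at 660.2 and 806.7 CPM, a log2 ratio of 0.29. None of 30 genes measured in cluster 10 was lower past 1.5-fold, beside 14.2% of all genes, and 9 were higher, beside 17.7%. Most remaining clusters were also nearly all of 1 library, so a cluster may be that library and not a type. Among monocyte/macrophage-like clusters of the responder library the hypoxia targets were highest, after cluster 6, in cluster 2 and in the monocyte-like cluster 8, at 1338 CPM in 719 cells, and lowest in cluster 5, led by Ccl8, at 614.8 CPM in 889 cells. In the non-responder library, clusters 0, 1 and 3, with 819, 470 and 400 cells, were at 1204, 950.0 and 1036 CPM.

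Vegfa did not keep to the order of the other targets. It was at 56.9 CPM in cluster 8 of the responder library, which was led by Ly6i, Ly6c2 and Il1b, and at 41.8 and 39.3 CPM in cluster 6. In clusters 0, 1 and 3 of the non-responder library it was at 12.3, 11.0 and 6.0 CPM. With equal weight to the 4 clusters that had at least 20 cells in each library, its log2 ratio turned to -0.19.

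Without clusters 6 and 7, a setting chosen after their values were seen, the log2 ratio of the hypoxia targets went from -0.72 to -0.25. That of the enzymes went from -0.32 to -0.11. These clusters were left out for their high hypoxia targets in the non-responder library, so a smaller gap follows in part from that choice. Only 3 genes then remained lower past 1.5-fold, beside 12.3% of all genes: Ankrd37 at 49.2 and 18.1 CPM, Adm at 3.23 and 0.704 CPM, and Eno1 at 788.5 and 517.0 CPM. Higher past 1.5-fold were 4 genes, beside 7.83%: Vegfa, Ndrg1, Pfkp and Aldoc. Ndrg1, which was lower over the whole class, stood at 13.6 and 20.6 CPM here, a log2 ratio of 0.60. With equal weight to the 4 shared clusters, 5 of the 32 genes were lower, Ankrd37, Hilpda, Adm, Hk2 and Eno1, beside 15.6% of all genes. P4ha2 and Hk1 were higher, with log2 ratios of 1.11 and 0.84, beside 16.6%. Cluster 7, where 25 of 27 measured genes were lower, was 1 of those 4 clusters, while in cluster 10 none of 30 was lower. With equal weight the share of the 32 genes that were lower was thus close to that of all genes. Without clusters 6 and 7 it was below that of all genes. Ankrd37, Adm and Eno1 were lower past 1.5-fold over the whole class, without clusters 6 and 7, and with equal weight. In the last 2 of these settings that many genes is no more than the shares of all genes give. Without clusters 6 and 7 the log2 interval of Eno1, -0.637 to -0.581, includes the 1.5-fold limit, and Adm was low in both libraries.

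Outside the myeloid class, T/NK cell-like cells, 87 and 97 of them, had hypoxia targets at 1042 CPM in the non-responder library and 1212 in the responder library, a log2 ratio of 0.22 (0.05 to 0.38). That sum rested on Hilpda, at 176.2 and 352.3 CPM there. Without it, a setting chosen after its values were seen, the other 15 targets were at 866.1 and 859.6 CPM, a log2 ratio of -0.01 (-0.20 to 0.18). Of the 16 targets 12 had the lower value in the responder library and 4 the higher. Some of these targets had very few counts, such as 1 for Adm and 2 for P4ha2 in the non-responder library. Enzymes were at 11059 and 12798 CPM, a log2 ratio of 0.21, with 9 of 14 higher in the responder library and 5 lower. The share of all genes in each direction was not computed for these cells, so these counts by direction have no level to stand against. Hif1a was at 43.7 and 155.0 CPM and Pfkp at 114.5 and 251.3 CPM. Ankrd37, one of the 12 lower targets, was at 63.3 and 16.4 CPM, on 42 and 7 counts. Median depth was 5866 and 3718 UMIs. Macrophage markers summed to 885.6 and 2353.5 CPM in these cells and T cell markers to 4416 and 11225 CPM, and the part of such RNA in the result was not tested.

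Cluster 12 held 20 and 22 cells with Ptprc, the CD45 gene, at 3.75 and 9.06 CPM, against 130.2 and 179.0 CPM in the myeloid class. These cells go against the CD45+ label. They were led by Serpinh1, Dcn, Col3a1 and Sparc, while Epcam, Krt8, Krt18 and Krt19 were at 0 in both libraries and Col1a1 was at 16.2 and 0 CPM, and they were left unnamed. Their hypoxia targets were at 4909 CPM in the non-responder library and 1389 in the responder library, a log2 ratio of -1.82. Ndrg1 was at 673.7 and 50.5 CPM, Higd1a at 1454 and 684.8 CPM and Ero1l at 341.2 and 28.5 CPM. Car9 was at 137.5 and 1.29 CPM, but 85 of its 110 UMIs in the non-responder library came from 1 cell. In single cells of the cluster the hypoxia targets ran from 204.0 to 10090 CPM, with a median of 2237, in the non-responder library and from 313.97 to 4568, with a median of 1024, in the responder library, so the ranges overlapped. Among monocyte/macrophage-like clusters with at least 20 cells in a library Car9 stayed between 5.25 and 16.8 CPM.

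To compare single cells at 1 depth, each was thinned to 5000 UMIs, which left out 126 and 330 shallower cells of the class and kept 2234 and 3828. The median cell had 5 hypoxia-target UMIs in the non-responder library and 4 in the responder library, so the middle of the range was close. Above it the libraries parted: the 75th percentile was 11 and 6 UMIs and the 95th percentile 26 and 12. The highest cell had 105 and 46. Cells at 13 UMIs or more, the 90th percentile of both libraries together, made up 20.5% (18.8 to 22.2) of the non-responder cells and 4.83% (4.18 to 5.56) of the responder cells. This is a range of a score and not a cell type, and 60 and 50 cells sat at 13 UMIs, with 58 and 64 at 12.

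**Figure D3:**
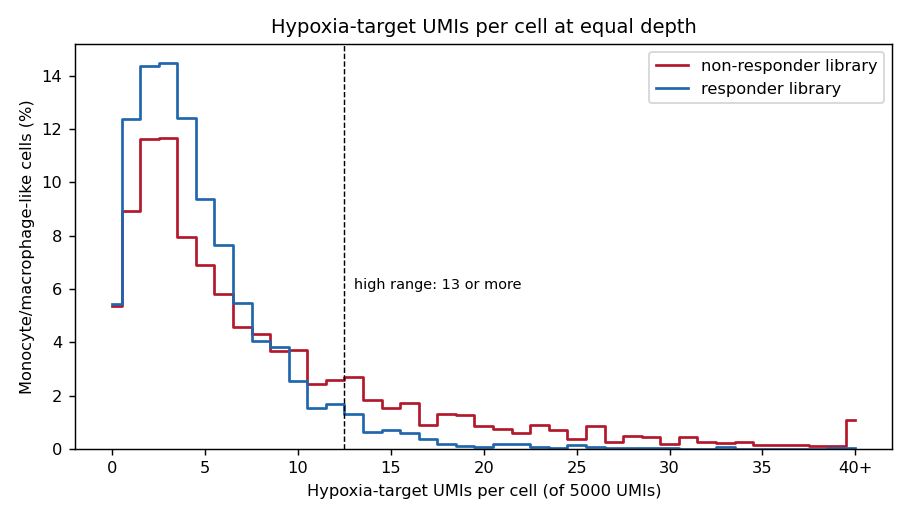
Share of monocyte/macrophage-like cells (y axis, percent) by hypoxia-target UMIs in a cell thinned to 5000 UMIs (x axis, cells at 40 or more together). The libraries peak alike at low values, and to the right of the dashed line at 13 UMIs lie 20.5% of non-responder cells (red) and 4.83% of responder cells (blue).

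Cluster 6 gave 50.1% of the high-range cells of the non-responder library, and 66.0% of its cells there were in the range. In the responder library clusters 8 and 2 gave 36.8% and 30.3% of the high-range cells, though only 10.8% and 16.2% of their own cells were in it. Cells in the range had fewer UMIs before thinning than the rest, with medians of 10879 against 12571 in the non-responder library and 9588 against 10470 in the responder library. Their macrophage marker UMIs were lower too, with medians of 145 against 190 and 178 against 206. The median share of mitochondrial UMIs was 1.63% in the range against 2.30% in the rest of the non-responder library, and 1.56% against 2.10% in the responder library. The part of depth or of these shares in the result was not tested. Fibroblast and tumour epithelial markers were scarce. Of 10 fibroblast markers 3 had any UMI in the range in each library, with Col1a1, Col1a2 and Pdgfra at 0. Of 9 tumour epithelial markers 2 and 1 had any, with Epcam, Krt8, Krt18 and Krt19 at 0. The tumour epithelial markers summed to only 0 and 1.29 CPM in cluster 12 too, whose cells were low in Ptprc. Whether the injected tumour line makes these markers was not tested. Their scarcity therefore cannot show that tumour RNA was absent from the range. Neutrophil markers summed to 94.1 CPM in the range and 59.7 in the rest of the non-responder library, and to 28.1 and 31.3 CPM in the responder library.

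The glycolytic enzymes, which had no part in sorting the cells, were higher in sum toward the top of the hypoxia-target range in both libraries. Cells were put in quintiles by their hypoxia-target UMIs. From the lowest to the highest quintile the enzymes went from 7595 to 24181 CPM in the non-responder library and from 7597 to 17135 CPM in the responder library. Cells of the lowest quintile thus had nearly equal enzyme levels in both libraries. All 14 enzymes were higher past 1.5-fold in the highest quintile in each library, beside 10.2% of all genes measured in the non-responder library and 6.8% in the responder library. None was lower, beside 26.7% and 6.2% of all genes. The further genes of glycolysis and pyruvate handling did not rise as a group. Of 10 measured in the non-responder library, 1 was higher and 1 lower, with a median log2 ratio of 0.16. Of 12 in the responder library, 3 were higher and 1 lower, with a median of 0.08. The rise thus held for the 14 enzymes and not for glycolysis genes at large. Cells share a library, so these are descriptions of 2 libraries.

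Among single enzymes, Pfkp went from 27.3 to 161.0 CPM in the non-responder library and from 48.6 to 138.3 CPM in the responder library. Aldoc, which was higher in the responder class, went from 13.9 to 47.5 CPM and from 20.9 to 87.8 CPM. Hk2 went from 30.9 to 142.2 CPM and from 25.3 to 47.6 CPM. Hk1 went least in both, from 20.6 to 42.2 and from 28.7 to 46.3 CPM. Mif went from 717.2 to 2635 CPM and from 742.0 to 2060 CPM, like the enzymes. Hif1a stayed at 35.8 and 34.5 CPM in the lowest and highest quintiles of the non-responder library and at 52.0 and 55.4 CPM in those of the responder library, and both intervals of its log2 ratio include 0.

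**Figure D4:**
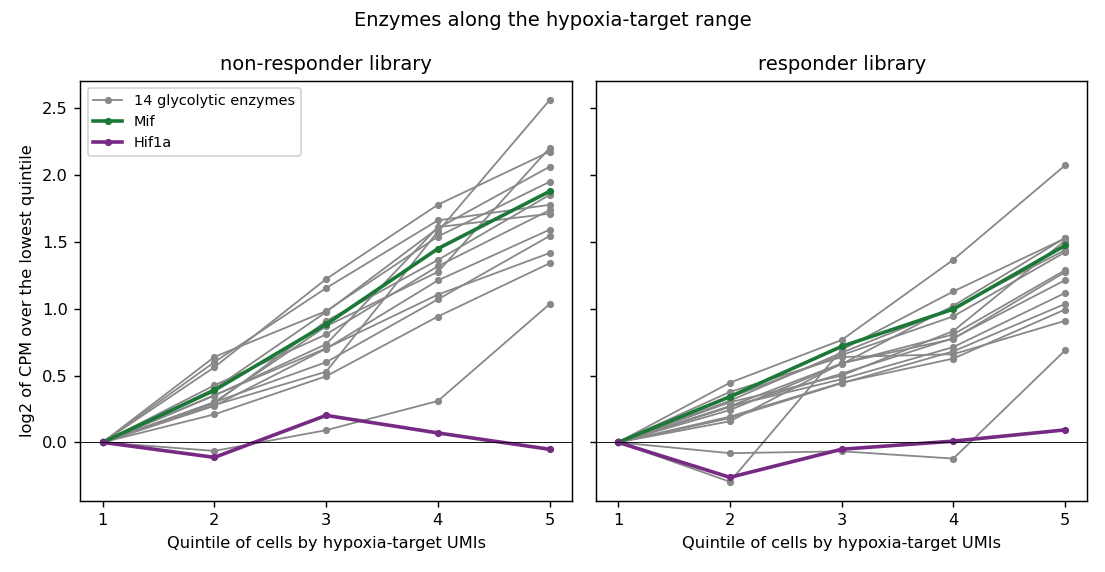
log2 of CPM over the lowest quintile (y axis) for 14 glycolytic enzymes (grey), Mif (green) and Hif1a (purple) in quintiles of monocyte/macrophage-like cells ordered by hypoxia-target UMIs (x axis), in each library. All 14 enzymes and Mif end above the lowest quintile in both panels; Hk1, lowest among the enzymes at log2 values of 1.03 and 0.69, stays near its first value over the first 4 quintiles of the responder library, while Hif1a ends at -0.05 and 0.09.

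Across cells, Spearman's rho between the summed hypoxia targets and the summed enzymes was 0.78 over 2234 cells of the non-responder library and 0.61 over 3828 cells of the responder library. Cells of a library share its capture and sequencing, and the rank correlation of the hypoxia sum with depth before thinning was -0.13 and -0.07. Within single clusters of at least 100 cells rho lay between 0.45, in cluster 5, and 0.76, in cluster 7, so the relation was also present among cells of 1 cluster.

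Each gene was also ranked by its rho with the summed 32 genes, or for one of the 32 with the sum of the others. Enough cells had a UMI for 3591 genes, 22 of the 32 among them. Those of the 32 without a value were all hypoxia targets: Vegfa, Egln3, Ndrg1, Ankrd37, Ero1l, Adm, P4ha2, Pdk1, Mxi1 and Car9. The sum was also mostly enzyme UMIs, at 14303 of 17341 CPM in the non-responder class and 11459.5 of 13717 in the responder class. Aldoa stood at 0.85 and 0.76, Tpi1 at 0.80 and 0.72, Mif at 0.79 and 0.74, and Bnip3 at 0.67 and 0.47, in the non-responder and responder library. Hilpda was at 0.51 and 0.14 and Hk2 at 0.21 and 0.04, so both values were lower in the responder library. Hif1a was at -0.03 in each. Over the 3569 other genes the median was -0.04 and -0.01 and the 95th percentile 0.10 in each library.

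The genes outside the 32 that followed most closely in both libraries were led by Lgals3 (galectin-3), at 0.68 and 0.49, Anxa2 (annexin A2), at 0.54 and 0.46, and Arg1 (arginase), at 0.50 and 0.44. Fam162a, a known HIF target, was at 0.44 in each, and AA467197 at 0.40 and 0.50. The rest of the first 15 were Capg, Srgn, Bsg, Adam8, Prelid2, Mt1, Eif4ebp1, Vim, Actg1 and Grhpr. Bsg is the chaperone that takes the lactate exporters to the membrane. In the class Lgals3 was at 3338 and 1900 CPM and Arg1 at 786.7 and 333.7 CPM. Running most strongly against the sum were Aif1, at -0.47 and -0.35, Tmem176b, at -0.43 and -0.33, Tmem176a, Ly6e, the mitochondrially encoded mt-Atp6, Pld4, Ms4a6c, Fos, Ms4a6b and Lst1. Aif1, which encodes a macrophage calcium-binding protein, was at 1269 and 2146 CPM in the class.

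**Figure D5:**
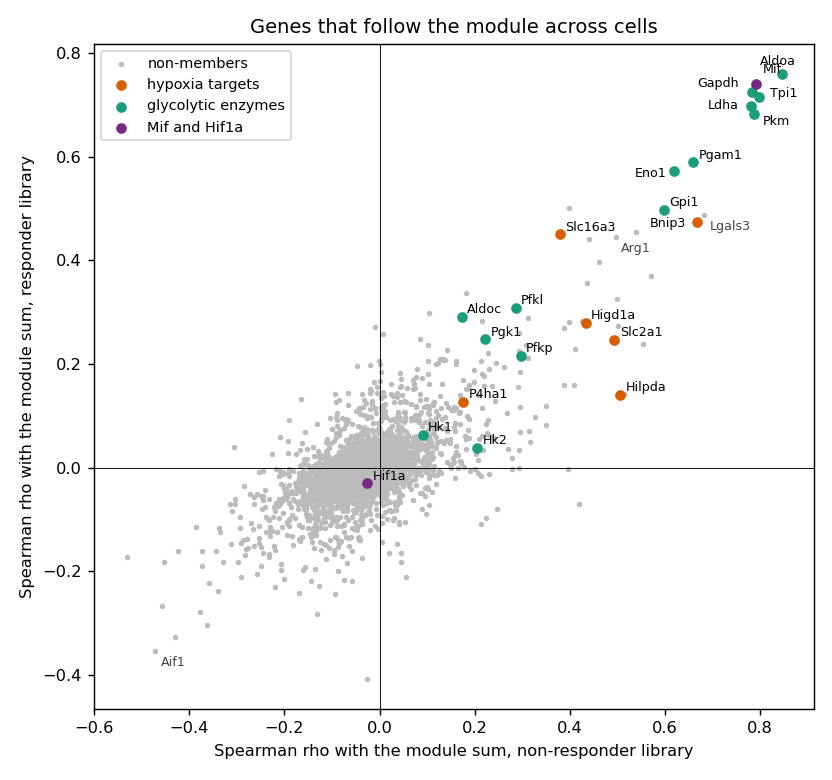
Spearman rho of each gene with the summed 32 genes (without the gene itself where it is one of them) across monocyte/macrophage-like cells thinned to 5000 UMIs, in the non-responder library (x axis) and the responder library (y axis). Grey points are the 3569 other genes and coloured points the 22 of the 32 genes with a value. Aldoa, Tpi1 and Mif lie at the top right with Lgals3 among the grey points nearest to them, and Hif1a lies near 0.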

How the data were processed

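RNA molecules of CD45+ cells were counted in 1 non-responder and 1 responder library. Droplet capture used a 3' v3 kit of 10x Genomics, per the labels' protocols. The authors deposited a filtered matrix of UMI counts per gene and barcode for each library, with no normalization. Cell Ranger 1.1.0 and the builds mm10 and GRCm38 are per the submitters' processing notes. Aligner settings and annotation: not given in the sources used here. Totals were 32032569 and 45866561 UMIs.

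Cells were dropped at under 500 genes (4) or over 10% mitochondrial UMIs (61). Scrublet in scanpy 1.11.5 called 1 doublet, so doublets were in effect not removed. Both libraries were clustered together (2000 variable genes without the 32 and the pathway lists, 30 components, 15 neighbours, Leiden resolution 1.0) into 15 clusters, 11 of which were named monocyte/macrophage-like. The rule for names was chosen with the data in view: at least 75% of the macrophage markers at 50 CPM or more with a UMI in 10% of cells. A cluster also rich in T cell markers was kept apart as mixed. Among the 10 leading genes of cluster 9, markers of other classes outnumbered those of its own, and values without it were computed.

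The members and lists were chosen with earlier results of these data known. UMIs were summed per class or cluster, scaled to CPM, with exact Poisson intervals, and the ratio had a conditional exact binomial interval. Shares had Clopper-Pearson intervals. Genes of at least 50 counts in both libraries together were counted, and called past 1.5-fold. Genes outside the 32 were named by rule: the 15 with the highest and the 10 with the lowest rho in the less favourable library, among genes with a UMI in 10% of thinned cells, and pathway genes past 1.5-fold, of which 1 is not reported here. Genes that lead a cluster and cell markers were named beside them. TMM factors came from edgeR 4.0.16. The interval and rank steps were tested on simulated data. Gene names were those of the files, and 31 of the 32 were matched to RefSeq promoters, Ero1l as Ero1a.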

Additional observations from a re-analysis of the deposited data

Results flagged for a closer look

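The hypoxia targets were lower in the responder library in the monocyte/macrophage-like class (log2 ratio -0.72) and higher in the T/NK cell-like class (0.22, counting interval 0.05 to 0.38). The second value rested on Hilpda: without it the ratio was -0.01 (-0.20 to 0.18). In those cells 12 of the 16 targets had the lower value in the responder library, some on very few counts. The share of all genes that were lower there was not computed. The glycolytic enzymes differed in the same way, with a log2 ratio of -0.32 in the myeloid class and 0.21 in the T/NK cell-like class. They are set out because the same contrast on the summed levels took opposite directions in different cells of the same libraries. With 1 library per group, the difference between the classes was not tested.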

How the results depend on the processing

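With 1 library per group no replicate could be left out, and counting error is the only error measured. No paired analysis was possible because each group has 1 library and the labels give no replicate numbers. The summed ratios of the myeloid class kept their sign in every setting run. With equal weight to the 4 shared clusters, the gap lay mostly in cluster 7, whose cells also differed between the libraries in other genes. Log2 ratios of hypoxia targets were -2.06 in cluster 7 and -0.19, 0.04 and 0.29 in clusters 2, 6 and 10. Those of enzymes were -1.56 in cluster 7 and -0.19, -0.02 and 0.26 in the others. Equal weight without cluster 7 was not run. For all 32 genes, hypoxia targets and enzymes, the log2 ratio was -0.22, -0.60 and -0.20 with TMM scaling, -0.38, -0.79 and -0.35 in cells thinned to 3000 UMIs, -0.38, -0.80 and -0.35 as a mean over cells, and -0.28, -0.40 and -0.29 with equal weight to the 4 shared clusters. It was -0.32, -0.70 and -0.30 with the genes kept in clustering and -0.31, -0.65 and -0.30 without cluster 7. Without clusters 6 and 7 it was -0.11, -0.25 and -0.11. For all 32 genes and enzymes it was -0.33 and -0.31 in cells with at least 1000 genes, -0.32 and -0.30 at Leiden resolution 0.5, -0.37 and -0.36 without cluster 9, and -0.32 and -0.29 without Gapdh. All 32 genes were at -0.41 without the 3 with the most UMIs. In all filtered cells hypoxia targets were at -0.76 and enzymes at -0.31. Settings without cluster 7, without cluster 9, without clusters 6 and 7, without shared barcodes and without Hilpda were chosen after seeing the data. The 12 genes lower past 1.5-fold became 5 with equal weight to clusters (15.6% of all genes), 3 without clusters 6 and 7 (12.3%) and 6 past 2-fold (4.42%). The 2 higher became P4ha2 and Hk1 with equal weight (16.6% of all genes), 4 without clusters 6 and 7 or with the lowest fold limit tried, 0 past 2-fold, and 1, without Aldoc, at resolution 0.5, with the genes kept in clustering, thinned to 3000 UMIs, as a mean over cells, in all cells and without cluster 9. With equal weight to clusters the sign turned for Vegfa (-0.19), Ero1l (0.26), P4ha2 (1.11), Higd1a (0.13), Mxi1 (0.17) and Pgk1 (0.29). It turned without clusters 6 and 7 for Ndrg1 (0.60), Higd1a (0.069), Pfkl (0.024), Aldoa (0.017), Tpi1 (0.042), Pkm (0.14) and Mif (0.038), and with TMM scaling for Pfkl (0.024), Pkm (0.058) and Pdk1 (0.017). Car9, whose interval included 0, turned in 6 settings, from -0.34 in all filtered cells to -0.0074 as a mean over cells. Of the 32 genes, 18 kept their sign in all 18 settings. The T/NK cell-like ratio of hypoxia targets, 0.22, was -0.011 without Hilpda. High-range shares, 20.5% and 4.83%, were 10.2% and 4.38% without clusters 6 and 7 at the same limit of 13 UMIs, 17.9% and 10.1% at the limit of 10 UMIs that is the 90th percentile of the cells left, 32.9% and 14.4% at the 80th percentile, 11.8% and 1.23% at the 95th, and 35.1% and 24.2% with equal weight to clusters. The responder share was 6.19% after thinning to 3000 UMIs. The causes of these changes were not tested.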
